A study of Mus musculus with 11 samples.

Results

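Constitutively active IKKβ was set against intact IKKβ in the microglia of tau transgenic mice. The microglia were 2928 of the 56245 nuclei that passed quality limits in 5 mice (5049 of 112539 in the whole series of 11 mice). They were chosen as nuclei with 300 to 8000 detected genes, at most 5% mitochondrial UMIs (a UMI marks 1 captured RNA molecule), at least 3 of the 8 genes Inpp5d, Csf1r, Ly86, Siglech, Selplg, Ikzf1, Runx1 and Dock8, and at most 1 UMI of the excitatory neuron gene Slc17a7. The 2 active IKKβ P301S mice (labelled ikbkbCA;P301S+, aged 10.85 and 9.8 months) gave 754 and 666 microglia, and the 3 P301S mice (labelled ikbkb+/+;P301S+, aged 9.15, 10.03 and 10.75 months) gave 297, 384 and 827. The shared fit also held 4 non-transgenic mice (labelled ikbkb+/+, aged 10.03, 10.03, 10.85 and 9.8 months) and 2 knockout P301S mice (labelled ikbkb-/-;P301S+, aged 8.39 and 9.15 months).

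All mice were labelled female, whereas the study's methods give male mice for RNA sequencing. Xist, the RNA that coats the inactive X chromosome of female cells, measured 1662.5 to 2097 CPM (UMI counts scaled to library size) in the microglia of the 5 mice. Each mouse gave 1 library of sorted nuclei from frozen cortex, and both groups carried the P301S tau transgene (the PS19 strain). By the study's methods, the active IKKβ mice carried 1 Cx3cr1 allele replaced by CreERT2, a tamoxifen-dependent recombinase expressed in microglia and other Cx3cr1+ cells, and a constitutively active IKKβ sequence behind a floxed stop in both copies of the Rosa26 locus. The P301S mice lacked Cre, kept both Cx3cr1 alleles and carried floxed alleles that were not recombined, and tamoxifen was given to mice with and without Cre. Active IKKβ, Cre and the loss of 1 Cx3cr1 allele therefore cannot be told apart in this contrast. By the titles, P301S replicates 1 and 2 came from the floxed Ikbkb line and replicate 3 from the active IKKβ line, so titled breeding line was partly confounded with genotype. Separate mice were the replicates, and nuclei of 1 mouse were not treated as such.

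IKKβ is the catalytic subunit of the IκB kinase complex that drives the canonical NF-κB pathway. It phosphorylates IκB proteins, whose breakdown lets dimers of RelA, c-Rel and p50 enter the nucleus and switch on cytokine, adhesion, survival and antigen presentation genes, along with inhibitors of the pathway itself. A second, noncanonical branch runs through NIK, IKKα, p100 and RelB and is held in check by TRAF2, TRAF3 and the cIAP proteins. In microglia the pathway is best known for responses to bacterial products, cytokines and damaged tissue.

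The libraries of the 5 mice held 10976 to 12315 barcodes and 72007219 to 93205362 UMIs, and the microglial sums held 682569 to 2334409 UMIs. Median UMIs per microglial nucleus were 1495, 1912.5 and 2097 in the P301S mice and 2400 and 2567 in the active IKKβ mice, so the sums of active IKKβ mice were also the deeper per nucleus. Levels throughout are CPM, a mouse's summed microglial UMIs scaled to library size with TMM factors, so they do not move with the number of nuclei. The share of a library's UMIs that is microglial mixes the number of microglia with the RNA per nucleus, so the 2 are given apart, here and in the next paragraph. The 10 microglial check genes that the rule did not use (among them P2ry12, Tmem119 and C1qa) summed to 2842 to 3211 CPM in P301S and 2743 to 3397 CPM in active IKKβ microglia, against 32.1 to 35.2 CPM in nuclei with none of the 8 rule genes. Nuclei with exactly 3 rule genes, just inside the rule, numbered 156 in the series with 10.4 check gene UMIs per 10000, and the 292 with exactly 2 had 0.909. The 16 neuronal markers summed to 16392 to 20425 CPM in P301S and 16799 to 17106 CPM in active IKKβ microglia, against 30439 to 37656 CPM in the other nuclei, and 2 of the 15 tested had a positive log2 fold change. The contrast was repeated in nuclei with at most 10 UMIs of 44 markers of other cell types, neuronal ones among them, and its calls are given in the closing section on processing. Beyond that, the part of neuronal RNA in the results was not tested. The 7 border macrophage markers summed to 82.8 to 140.3 CPM against 48.5 to 150.4 CPM, and the 7 monocyte or neutrophil markers to 3.97 to 7.53 against 1.73 to 5.72 CPM, with S100a8, S100a9, Plac8, Ly6c2 and Ly6g at 0 in all 5 mice. Astrocyte, oligodendrocyte, precursor, vascular and lymphocyte markers overlapped between the groups as well, and no member (0) of these lists was called. Any 2 of the 11 libraries shared 15 to 45 barcodes and at most 1 microglial barcode.

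Microglia made up 2.66, 3.15 and 7.59% of nuclei in the P301S mice and 6.99 and 5.95% in the active IKKβ mice. The means were 4.47 ± 2.72% (SD, n = 3) and 6.47 ± 0.740% (SD, n = 2), a difference of 2.00 points that was within the spread of the mice (exact permutation test, two-sided, p = 0.4, with 0.1 the smallest p that 10 splits allow). P301S replicate 3, the P301S mouse of the active IKKβ line, had the highest share of all 5. 

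Ikbkb itself did not pass the test. Its level was 111, 98.3 and 109 CPM in P301S replicates 1 to 3 and 135 and 126 CPM in active IKKβ replicates 1 and 2 (log2 fold change 0.30 ± 0.15 SE, adjusted p = 0.637, edgeR's quasi-likelihood test with Benjamini-Hochberg adjustment). Both active IKKβ mice lay above all 3 P301S mice, and the difference did not pass adjustment over all genes. The active sequence sits at Rosa26, and 3′ reads from it need not map to Ikbkb, so Ikbkb is a weak check of the labels. Nfkbia, which encodes IκBα and is a classic NF-κB target, measured 19.8, 6.95 and 18.4 CPM against 31.2 and 42.2 CPM (log2 1.26 ± 0.44 SE, adjusted p = 0.365), again without overlap and without passing. Cx3cr1 measured 487, 442 and 543 CPM against 502 and 381 CPM (log2 -0.15 ± 0.18 SE, adjusted p = 0.925), and the groups overlapped. The Rosa26 transcript Gt(ROSA)26Sor was not among the genes tested.

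Active IKKβ microglia were set apart by a small group of genes that mostly rose. Of 10714 genes tested, 57 were called (0.532% of all tested, adjusted p under 0.05 and absolute log2 fold change over 0.1, edgeR), 48 higher (0.448%) and 9 lower (0.084%). All 57 had levels that did not overlap between the groups, which 13% of all tested genes did upwards and 11% downwards. The 48 rises ran from 0.72 to 6.80 on the log2 scale, with a median of 1.51, and the 9 falls from -2.23 to -0.79, while the median of all genes was -0.0067. Leaving out 1 mouse moved the count to 36 without active IKKβ replicate 2, 37 without active IKKβ replicate 1 or P301S replicate 2, and 123 without P301S replicate 3. Doublets were not removed from these sums, and 6.90 to 13.5% of a mouse's microglial nuclei held over 2 times the median UMIs of its microglia. Without these deep nuclei, an alternative chosen after seeing the data, 122 of 9211 genes were called (1.32%), 74 higher (0.803%) and 48 lower (0.521%), so the share of rises was 60.7% in place of 84.2%. Of the 57 genes, 54 were called in both sets, Trim7 and Vasp only with all nuclei, and Exoc3l4 was too low to be tested without the deep nuclei.

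Among the genes tested, the largest rises were in genes that are not classic members of the pathway. C3, which the study lists among NF-κB target genes, was too low to be tested. It had 0, 0 and 1 UMIs in the P301S mice against 15 and 45 in the active IKKβ mice. Ttn, which encodes the giant sarcomere protein titin (chr2:76703980-76982547 in GRCm38), was almost silent in P301S microglia at 0, 1.99 and 1.67 CPM and measured 119 and 231 CPM with active IKKβ (log2 6.80 ± 0.43 SE, adjusted p = 4.02e-07, edgeR). That is 799 UMIs against 6. Every P301S mouse was near 0 and both active IKKβ mice were high, replicate 2 the higher. Ddo, the peroxisomal enzyme D-aspartate oxidase (chr10:40630011-40681847), went from 9.15, 4.97 and 10.5 CPM to 121 and 138 CPM (log2 3.88 ± 0.38 SE, adjusted p = 7.06e-05, and log2 6.05 without the deep nuclei described above). Ccr9, the receptor of the chemokine CCL25, went from 3.05, 0.993 and 5.44 CPM to 40.3 and 69.5 CPM (log2 3.82 ± 0.42 SE, adjusted p = 2.96e-04, and log2 4.74 without the deep nuclei). Exoc3l4, a relative of an exocyst subunit, rested on 3 UMIs in P301S against 54 in active IKKβ microglia, a ratio of counts of 16.0 with a 95% exact interval of 5.19 to 80.0 that covers counting error only.

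Enzymes of immune cells and of metabolism followed. Aoah, which encodes the acyloxyacyl hydrolase that removes fatty acids from bacterial lipopolysaccharide, had 4.58, 26.8 and 38.5 CPM in P301S and 251 and 268 CPM in active IKKβ microglia (log2 3.23 ± 0.39 SE, adjusted p = 5.75e-04). Cp, the copper-carrying ferroxidase ceruloplasmin, had 13.7, 14.9 and 18.4 against 107 and 98.5 CPM (log2 2.64 ± 0.36 SE, adjusted p = 0.00115). Both were close between the 2 active IKKβ mice and well above every P301S mouse. Hpn, the membrane serine protease hepsin, had 16.8, 4.97 and 18.8 against 76.6 and 79.6 CPM (log2 2.43), and Tk1, the thymidine kinase of nucleotide salvage, had 6.10, 1.99 and 2.93 against 29.9 and 23.8 CPM (log2 3.00).

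Receptors and regulators made up a further set. Rxrg, the retinoid X receptor γ, had 19.8, 11.9 and 30.1 CPM against 174 and 172 CPM (log2 2.94 ± 0.24 SE, adjusted p = 7.35e-06). Slamf8, a receptor of the SLAM family on myeloid cells, had 6.10, 4.97 and 6.69 against 40.3 and 35.2 CPM (log2 2.61 ± 0.38 SE, adjusted p = 0.00205). Cd101, an immunoglobulin family protein of leukocytes, had 19.8, 15.9 and 30.1 against 103 and 102 CPM (log2 2.12 ± 0.25 SE, adjusted p = 5.14e-04). These 3 genes separated the groups by at least 3 times between the nearest mice. Msh5, a MutS homologue of meiotic recombination, measured 3.05, 12.9 and 5.44 CPM against 72.7 and 64.7 CPM (log2 3.27 ± 0.68 SE, adjusted p = 0.0417), but it was also at 59.9 CPM in 1 non-transgenic mouse of the active IKKβ line, which carries no Cre. Its neighbour Lst1 (21.4, 25.8 and 33.9 against 92.2 and 96.3 CPM) was likewise highest outside the group in that mouse, at 78.5 CPM, and its log2 fold change in the other nuclei was 1.46, which did not pass (adjusted p = 0.870).

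**Figure D1:**
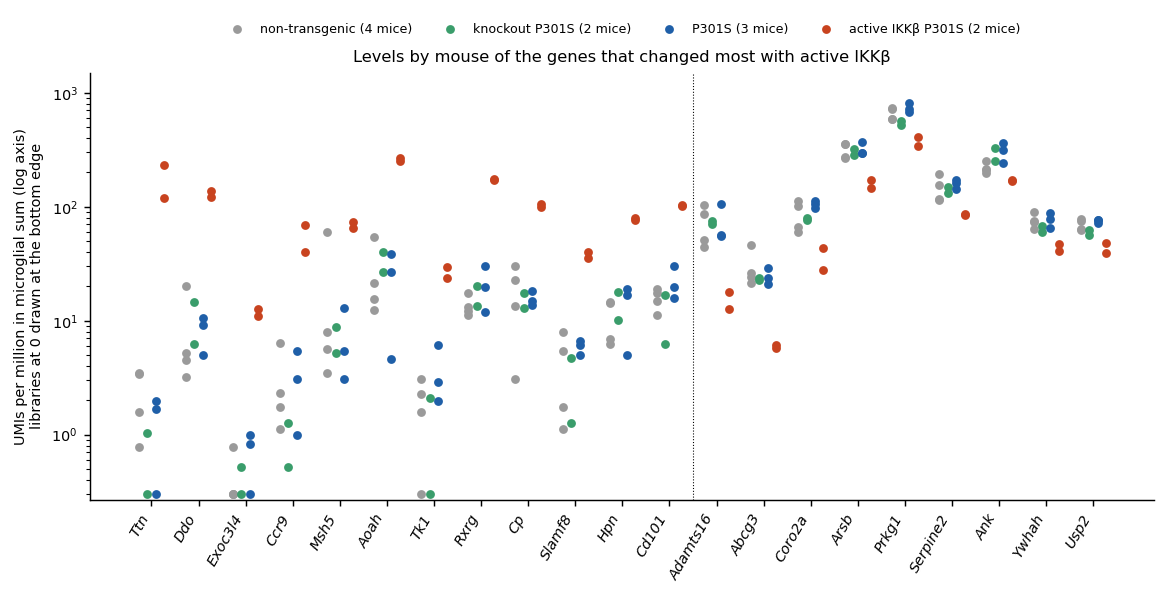
Each dot is 1 mouse, and the vertical log axis gives the CPM of the microglial sum, with libraries at 0 drawn on the bottom edge. The 12 largest rises stand left of the dotted line and the 9 falls right of it. For all 21 genes both active IKKβ mice lie outside the range of the 3 P301S mice, the 2 knockout P301S mice and the 4 non-transgenic mice, with Msh5 in 1 non-transgenic mouse at 59.9 the closest approach among the rises. The 21 genes were chosen for not overlapping the P301S mice, so that part holds by choice. Against the knockout and non-transgenic mice it is a description, since the same active IKKβ mice chose the genes and the share over all genes was not counted.

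The 9 falls were shallower. Adamts16, a secreted metalloprotease, dropped from 54.9, 106 and 56.9 CPM to 12.6 and 18 CPM (log2 -2.23 ± 0.36 SE, adjusted p = 0.00476). Coro2a, a coronin that binds actin, went from 105, 98.3 and 111 CPM to 27.7 and 43.1 CPM (log2 -1.57 ± 0.25 SE, adjusted p = 0.00397), with the P301S mice close together and both active IKKβ mice far below. Abcg3, an ABC transporter, went from 29, 23.8 and 20.9 to 6.06 and 5.72 CPM (log2 -1.99), and Arsb, the lysosomal arylsulfatase B, from 296, 366 and 296 to 171 and 147 CPM (log2 -1.0). Prkg1, the cGMP-dependent kinase, fell by 0.97 on the log2 scale, from 815, 684 and 724 to 343 and 410.4 CPM. Serpine2 (a serine protease inhibitor), Ank (a pyrophosphate transporter), Ywhah (a 14-3-3 protein) and Usp2 (a deubiquitinase) had log2 fold changes of -0.90, -0.86, -0.85 and -0.79, and their adjusted p values of 0.0483, 0.0417, 0.0489 and 0.0470 lay near the limit.

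In the pathway's own genes, a few regulators of the noncanonical branch and inhibitors rose, while the IKK kinases did not pass. Of 9 genes of the IKK complex and NF-κB subunits tested, 1 rose and none (0) fell, where 0.448% of all genes rose. All 9 log2 fold changes were positive, where 49.0% of all genes were. Their median was 0.26 (0.15 without the deep nuclei), against -0.0067 over all genes. The 1 was Relb, the noncanonical subunit, at 21.4, 39.7 and 59.4 CPM in P301S and 113 and 144 CPM in active IKKβ microglia (log2 1.54 ± 0.31 SE, adjusted p = 0.0363). P301S replicate 3 was the nearest of the 3 to the active IKKβ mice. Nfkb1, which encodes p105 and p50, measured 297, 275 and 394 against 505 and 475 CPM and did not pass (log2 0.59 ± 0.17 SE, adjusted p = 0.187). Ikbke, the inducible kinase IKKε, measured 0, 2.98 and 13.4 against 21.2 and 53.2 CPM (adjusted p = 0.10 with all nuclei and 0.0466 without the deep nuclei). Nfkb2, which encodes p100, was too low to be tested, with 0, 0 and 8 UMIs in the P301S mice against 23 and 20.

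Of 31 inhibitors, adaptors and upstream kinases, 5 rose and none (0) fell, where 0.448% of all genes rose, with a median log2 fold change of 0.26. Single mice moved this median, to 0.48 when P301S replicate 3 was left out and to 0.15 when active IKKβ replicate 1 was, and it was 0.14 against P301S replicate 3 alone. Tnip1, an adaptor of the A20 deubiquitinase that restrains NF-κB, went from 29, 19.9 and 41.8 CPM to 119.9 and 128 CPM (log2 1.95 ± 0.24 SE, adjusted p = 6.02e-04). Birc3, the ubiquitin ligase cIAP2, went from 29, 38.7 and 55.6 CPM to 134 and 117 CPM (log2 1.51 ± 0.21 SE, adjusted p = 0.00152). Both active IKKβ mice were more than 2 times the highest P301S mouse for these 2 genes. Tank, which binds TRAF proteins and the kinases TBK1 and IKKε, went from 83.9, 90.4 and 107 to 245 and 209 CPM (log2 1.25 ± 0.16 SE, adjusted p = 6.02e-04). Traf3 and Traf2, the adaptors that keep NIK low, measured 157, 189 and 253 against 445 and 445 CPM (log2 1.13) and 13.7, 12.9 and 22.6 against 42.9 and 40.5 CPM (log2 1.23). Relb and Traf2 were each called in 1 and Traf3 in 2 of the 5 analyses that left out 1 mouse, while Tnip1, Birc3 and Tank were called in all 5. Neither Traf3 nor Relb was called with breeding line as a covariate. Most members did not pass, among them Tnfaip3, which encodes A20.

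Promoter sequence bears on these genes because NF-κB binds a known 10-base consensus, the kappaB motif. A RefSeq promoter (GRCm38.p6, 250 bases before to 50 after a start) was found for 39 of the 48 genes that rose, and in 11 of them (28.2%) at least 1 promoter held a match to the consensus on either strand. Among the 8250 tested genes with a promoter the share was 12.8%. Among the 8 genes that fell with a promoter it was 0, too few genes to set apart from that share. Without the deep nuclei 14 of the 56 genes that rose with a promoter had a match (25%), and 4 of the 35 that fell (11.4%). A narrower form, GGGNNTTTCC on either strand, which partly overlaps the consensus, occurred in 5 of the 39 (12.8%) against 1.90% of the tested genes. These matches are a description of letters, not of binding. The stretches upstream of the start are shown for genes of the pathway and for 4 other rises, 5′ to 3′ on the gene's strand, with the matched bases in capitals.
Traf3 at chr12:111166330-111166369 (+): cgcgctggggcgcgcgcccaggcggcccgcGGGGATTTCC
Tank at chr2:61592995-61593054 (+): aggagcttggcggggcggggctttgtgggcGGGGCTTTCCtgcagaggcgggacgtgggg
Tank, other start, at chr2:61578517-61578576 (+): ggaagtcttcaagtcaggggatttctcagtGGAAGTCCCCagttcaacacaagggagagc
Tnip1 at chr11:54962967-54963028 (-): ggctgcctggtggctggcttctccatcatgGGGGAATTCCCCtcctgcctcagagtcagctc
Hpn at chr7:31111206-31111247 (-): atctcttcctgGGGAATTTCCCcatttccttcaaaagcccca
Sbno2 at chr10:80075589-80075648 (-): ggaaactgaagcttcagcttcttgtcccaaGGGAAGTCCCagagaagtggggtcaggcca
Galnt7 at chr8:57653133-57653192 (-): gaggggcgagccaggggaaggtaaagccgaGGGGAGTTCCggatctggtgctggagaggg
Apobec3 at chr15:79894909-79894968 (+): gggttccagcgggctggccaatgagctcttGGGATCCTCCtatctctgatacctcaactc
In Tnip1 the run held 3 overlapping matches, 58 to 47 bases before the start, and in Traf3 the match ended at the base before the start. Tank held matches upstream of several listed starts, and the 2 distinct stretches are shown. Slamf8 and Trim7 matched after the start, and no consensus match was found in the listed promoters of Birc3, Ttn, Ddo, Aoah or Icam1. No promoter was listed for Relb. Apobec3, an antiviral cytidine deaminase, rose from 128, 86.4 and 168 to 471 and 479.9 CPM. Sbno2, a transcriptional regulator downstream of interleukin 10, rose from 68.6, 73.5 and 89.5 to 149 and 134 CPM, and Galnt7, a glycosyltransferase, from 186, 146 and 209 to 396 and 348 CPM.

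Secreted effectors of inflammation were mostly too low in nuclei to test, and those tested did not pass. Of 41 cytokines and chemokines measured, 15 were tested and none (0) was called in the full set (0.532% of all genes were), with 9 at an unadjusted p under 0.05 (8.26% of all genes, 885 of 10714) and 2 called without the deep nuclei. Their median was 0.43, 0.12 without the deep nuclei, and 0.22 without active IKKβ replicate 1. The 2 nearest to the limit had fold changes of opposite sign. Cxcl16, a membrane-bound chemokine, measured 12.2, 1.99 and 10.5 CPM against 24.7 and 38.3 CPM (log2 1.90 ± 0.51 SE, adjusted p = 0.132, and 0.0461 without the deep nuclei). Tnfsf8, the CD30 ligand, measured 22.9, 30.8 and 48.1 CPM against 7.79 and 11.9 CPM (log2 -1.87 ± 0.42 SE, adjusted p = 0.0537, and 0.0141 without them). Tnf had 1, 0 and 0 UMIs in the P301S mice against 4 and 3, and Ccl3 had 1, 3 and 20 against 3 and 1.

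Among 31 cytokine and chemokine receptors only Ccr9 was called (0.532% of all genes were), with 10 at an unadjusted p under 0.05 (8.26% of all genes). Of the 31, 25 had a positive log2 fold change (49.0% of all genes). Their median was 0.23, 0.18 without the deep nuclei, and 0.099 against P301S replicate 3 alone. Among 37 pattern recognition genes Tlr5, the flagellin receptor, rose from 4.58, 4.97 and 3.35 CPM to 18.2 and 16.7 CPM (log2 2.09 ± 0.36 SE, adjusted p = 0.00869), and Casp4, the cytosolic sensor of lipopolysaccharide, passed without the deep nuclei (log2 1.19, adjusted p = 0.0395) but not with all nuclei (0.0545). Of 26 genes of antigen presentation, Cd80, the costimulatory ligand of T cells, rose from 35.1, 29.8 and 37.2 CPM to 88.8 and 87.5 CPM (log2 1.35 ± 0.25 SE, adjusted p = 0.0134). It was called in 2 of the 5 analyses that left out 1 mouse and not with breeding line as a covariate (adjusted p = 0.077). The list's median was 0.33, 0.13 without the deep nuclei, and 0.16 to 0.65 with 1 mouse left out. The interferon list (25 tested) and the complement list (13 tested) had no call in the full set, with 2 and 1 members at an unadjusted p under 0.05. Rtp4, an interferon-induced gene, measured 32, 41.7 and 24.7 against 10.8 and 11 CPM (adjusted p = 0.0537, and 0.0227 without the deep nuclei), and Ifi207 15.3, 12.9 and 18.4 against 6.06 and 11.9 CPM (adjusted p = 0.587). On the complement list the nearest to the limit were Vsir, which encodes the immune checkpoint VISTA rather than a complement component (adjusted p = 0.345), and C1qb, a subunit of C1q, at 209, 219.5 and 246 against 314 and 257 CPM. C3, the central complement component, was below the filter with 0, 0 and 1 UMIs in the P301S mice and 15 and 45 in the active IKKβ mice, a ratio of counts of 53.3 with a 95% exact interval from 9.21 to 2141 for counting error only.

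**Figure D2:**
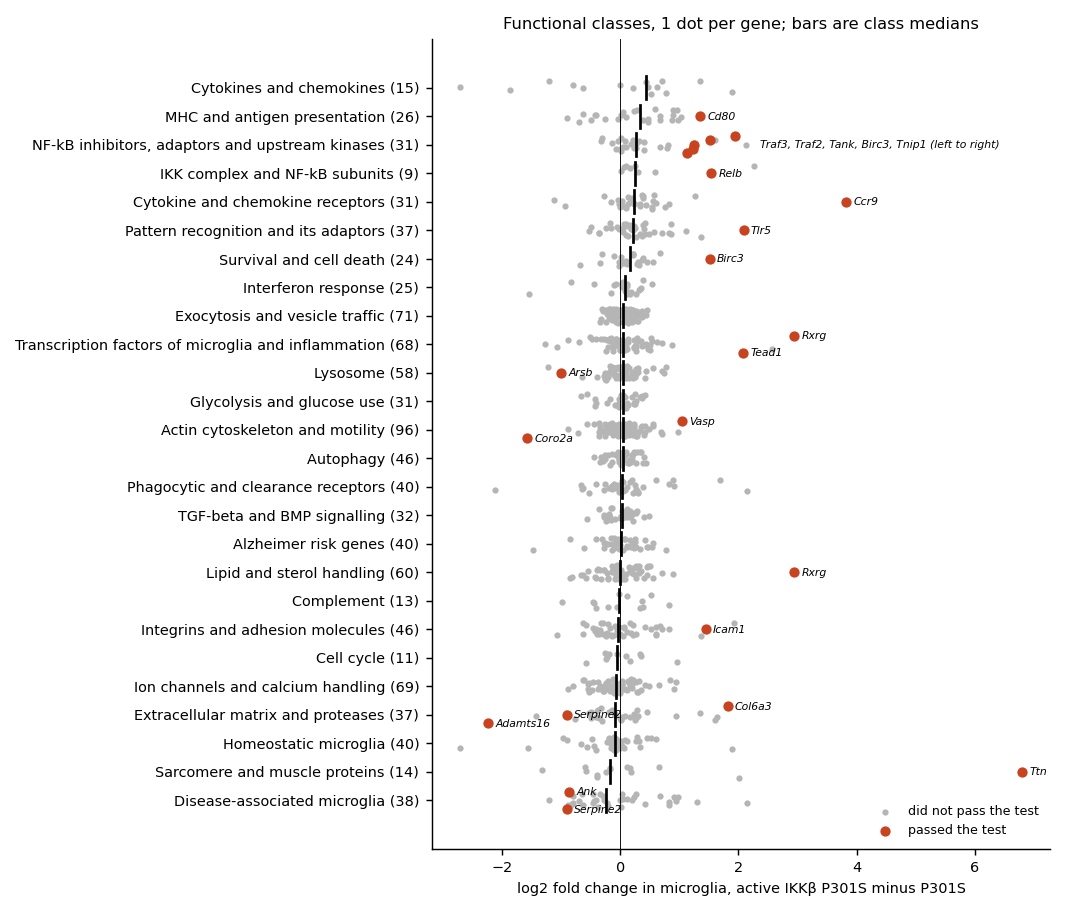
Each dot is 1 tested gene, placed by its log2 fold change in microglia (active IKKβ P301S minus P301S), with the number of tested genes in brackets and a bar at the median of each list. Called genes are red and named, 1 of them left out, in order from left to right for the row of 5, and grey dots did not pass. The pathway's inhibitor and adaptor list holds 5 of the red dots on the right, while the list of disease-associated microglia genes holds 2 on the left.

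The states by which microglia are usually classified were followed on lists of homeostatic and disease-associated genes. None (0) of 40 homeostatic genes was called, and 10 of the 40 had an unadjusted p under 0.05, where 8.26% of all genes did. Of the 40, 13 had a positive log2 fold change, where 49.0% of all genes did. The median was -0.092, and -0.24 without the deep nuclei. Single mice moved it, to -0.19 without active IKKβ replicate 1 and to 0.023 without active IKKβ replicate 2. Without the deep nuclei Fcrls and Crybb1 were called lower. Fcrls, a microglial Fc receptor-like gene, measured 219.7, 319.8 and 43.1 CPM against 21.2 and 35.6 CPM, with P301S replicate 3 near the active IKKβ mice. Crybb1 measured 56.4, 33.8 and 22.2 CPM against 13.4 and 9.24 CPM (adjusted p = 0.0911 in the full set and 0.0258 without the deep nuclei). P2ry6, a nucleotide receptor of phagocytosis that also stands on the clearance list, measured 136, 153 and 146 against 229 and 212 CPM (log2 0.60 ± 0.15 SE, adjusted p = 0.0931). Of 38 disease-associated genes, none (0) rose and 2 fell, Serpine2 and Ank, where 0.084% of all genes fell, with a median of -0.24. Leaving out P301S replicate 3 gave a median of 0.022, and active IKKβ replicate 1, -0.073, so its size rested on single mice. Serpine2 was called in none (0) of the 5 analyses that left out 1 mouse, and Ank in 1. Apoe measured 256, 273 and 595 against 114 and 311 CPM and overlapped (adjusted p = 0.695). Gpnmb was below the filter, with 4, 0 and 12 UMIs in P301S and 20 and 141 in active IKKβ mice, most of them in replicate 2. Other members below the filter went both ways. Postn had 1, 2 and 5 UMIs against 11 and 41, and Atp6v0d2 0, 0 and 11 against 6 and 44. Dkk2 had 0, 5 and 21 UMIs against 6 and 7.

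Counts of calls on the lists of clearance, traffic and lipid genes were read against the 0.532% called over all genes, and nothing was read from 0 or 1 call in a list of such size. Of 40 phagocytic receptors none (0) was called in the full set, with 7 at an unadjusted p under 0.05. Cd300lf, a lipid-binding receptor, measured 6.10, 4.97 and 15.1 CPM against 24.7 and 41.4 CPM (adjusted p = 0.0665), and Lrp1 and Mrc2 were called lower without the deep nuclei (log2 -0.86 and -2.37). Of 58 lysosomal genes only Arsb was called. None (0) of 46 autophagy genes was called (1 at an unadjusted p under 0.05). Wipi2 and Tfeb, the 2 nearest, had adjusted p values of 0.482 and 0.685. None (0) of 71 exocytosis and traffic genes was called (2 unadjusted). Exoc6, an exocyst subunit, measured 149, 156 and 149.7 against 213 and 195 CPM (adjusted p = 0.483), and Vps41 had an adjusted p of 0.516. Both lists stayed empty without the deep nuclei. Of 60 lipid genes only Rxrg was called in the full set.

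Few genes of the structure and adhesion lists were called. Of 46 adhesion genes tested, 12 had an unadjusted p under 0.05 (8.26% of all genes), and 21 had a positive log2 fold change. Icam1, the adhesion ligand of leukocyte integrins and an NF-κB target, rose from 12.2, 28.8 and 51 CPM to 88.8 and 103 CPM (log2 1.45 ± 0.31 SE, adjusted p = 0.0483, called in 1 of the 5 analyses that left out 1 mouse), the only call of 46 adhesion genes in the full set. Of 96 actin genes, 2 rose, among them Vasp, an actin elongation factor, while Coro2a fell (0.448% of all genes rose and 0.084% fell). Vasp measured 22.9, 33.8 and 33.5 CPM against 72.3 and 55.9 CPM (log2 1.04 ± 0.21 SE, adjusted p = 0.0301). Ttn was the only call of 14 sarcomere genes. Of 37 matrix genes, Col6a3, a chain of collagen VI, rose from 9.15, 12.9 and 18.4 to 56.7 and 48.4 CPM (log2 1.82) and Adamts16 and Serpine2 fell.

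Among 68 transcription factors 2 were called (0.532% of all genes were), Rxrg and Tead1, the DNA-binding partner of YAP. Tead1 measured 30.5, 17.9 and 30.5 CPM against 95.7 and 131 CPM (log2 2.08 ± 0.29 SE, adjusted p = 0.00124). Its log2 fold change was 3.55 without the deep nuclei. Birc3 was the only call of 24 survival genes. In the full set no member (0) was called of 69 ion channel and calcium genes (13 at an unadjusted p under 0.05, where 8.26% of all genes were), 32 TGF-β and BMP genes (1), 11 cell cycle genes (2), 31 glycolysis genes (2) or 40 genes near Alzheimer risk loci (5). Without the deep nuclei Cacna1a and Kcnma1, both ion channels, and Cass4, of the Alzheimer list, were called lower. The nearest in each, with all nuclei, had adjusted p values of 0.0537 (Hvcn1, a proton channel), 0.241 (Smurf1), 0.453 (Cdk6), 0.488 (Slc2a3, a glucose transporter) and 0.0546 (Cass4). The second in each were Atp2b4 (0.0665), Itgav (0.696), Ccnd1 (0.469), Slc2a5 (0.516) and Ctsh (0.211).

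The other genes that rose are given singly, and most of these rises were of moderate size. Spns3, a transporter of the sphingolipid family, measured 10.7, 10.9 and 18.4 CPM against 61.5 and 59.8 CPM (log2 2.05 ± 0.27 SE, adjusted p = 9.10e-04). Rbpms, an RNA-binding protein, measured 54.9, 64.6 and 78.2 CPM against 168 and 207 CPM (log2 1.46 ± 0.22 SE, adjusted p = 0.00224). Nadk, the kinase that makes NADP from NAD, measured 73.2, 81.4 and 97 CPM against 172 and 217 CPM (log2 1.18 ± 0.16 SE, adjusted p = 9.93e-04). In these 3 genes both active IKKβ mice lay above every P301S mouse. The tetraspanin gene Tspan33 and Ptgfrn, a tetraspanin partner next to Cd101, had log2 fold changes of 1.45 and 1.45. Kinase genes were Grk3, which phosphorylates G protein-coupled receptors (log2 0.85, from 140.3, 94.4 and 136 to 204 and 242 CPM), and Lrrk1, a relative of Lrrk2 (log2 0.96, from 185, 191 and 229.6 to 408 and 384 CPM). The ubiquitin ligase gene Rnf19b had a log2 fold change of 1.18 and the haem-binding protein gene Hebp1 of 1.11. Fnbp1, which bends membranes at sites of actin assembly, had the smallest rise of the 48 at 0.72 (from 447, 509 and 548 to 738 and 921 CPM), and Pbxip1, Ccdc122 and the antisense Zeb2os measured 1.01, 1.0 and 1.12. Vasp and Trim7, the other 2 genes of the 48 besides Exoc3l4 that were not called without the deep nuclei, had log2 fold changes of 1.04 and 1.51.

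Gene families defined by symbol held single calls, read against the 0.448% of all genes called higher, and nothing is read from 1 call in a family. Kcnj12, an inward rectifier channel, was called among 54 potassium channels, Rab20 among 80 Rab and TBC proteins, Zbtb46 among 262 zinc finger proteins and Trim7 among 37 TRIM proteins, each of them higher. Zbtb46, a factor known from dendritic cells, measured 13.7, 12.9 and 18.4 CPM against 65.8 and 70.8 CPM (log2 2.10 ± 0.28 SE, adjusted p = 9.10e-04). Rab20, a phagosomal GTPase, measured 19.8, 17.9 and 20.5 against 55.4 and 56.8 CPM (log2 1.51), and Kcnj12 15.3, 11.9 and 13 against 45 and 37.8 CPM (log2 1.65). The noncoding A830008E24Rik was the only call of 721 predicted genes and clones in the full set, at 165, 150.0 and 188 against 415 and 363 CPM. Without the deep nuclei 1 of 481 was called higher and 5 lower, where 0.803% and 0.521% of all genes were. Families with no call in the full set included 197 solute carriers (17 at an unadjusted p under 0.05, where 8.26% of all genes were), 40 MAP kinase cascade kinases (3), 56 ribosomal proteins (2) and 19 interleukin receptors (6).

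The share of nuclei in which a gene was detected differed between the genes that rose. To compare nuclei at equal depth, each microglial nucleus was thinned to 1000 UMIs, and 289, 376, 822, 754 and 664 nuclei remained in P301S replicates 1 to 3 and active IKKβ replicates 1 and 2. Traf3 was then detected in 14.9, 18.6 and 24.3% of P301S microglia and 38.1 and 38.3% of active IKKβ microglia, against 8.77 to 13.3% of other nuclei thinned to the same depth. Without thinning the shares were 24.9, 32.6 and 41.4% and 67.4 and 69.1%. Aoah was detected in 0, 1.86 and 1.82% and 20.8 and 23.6% (1.01, 3.12 and 3.39% and 39.1 and 46.8% without thinning), against 0.0990 to 0.468% of other nuclei. In both cases each active IKKβ mouse stood above each P301S mouse and above the other nuclei. Exoc3l4 (1.46 and 1.36%), Tlr5 (1.59 and 1.51%) and Ccr9 (2.92 and 6.63%) were detected in few active IKKβ nuclei at this depth.

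For Ttn the share was 0, 0.266 and 0.122% in P301S and 8.36 and 17.8% in active IKKβ microglia (0, 0.521 and 0.484% and 15.8 and 27.2% without thinning), and at most 0.277% in other nuclei. Ddo was found in 0.346, 0.266 and 0.487% and 13.5 and 12.8%, against 1.49 to 4.21% of other nuclei, so its P301S shares were below those of the other nuclei. Relb was found in 3.11, 3.72 and 6.69% and 12.2 and 17%, and Coro2a, which fell, in 9.69, 14.4 and 12.2% and 2.65 and 4.37%. Prkg1 was found in 39.1, 40.2 and 38.3% and 22.4 and 28.8% but also in 35.7 to 47.4% of other nuclei, and Ank in 18.3, 17.8 and 23.2% and 9.15 and 13.9%, below the 25.2 to 31.2% of other nuclei. The part of free RNA in the counts of both was not tested.

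**Figure D3:**
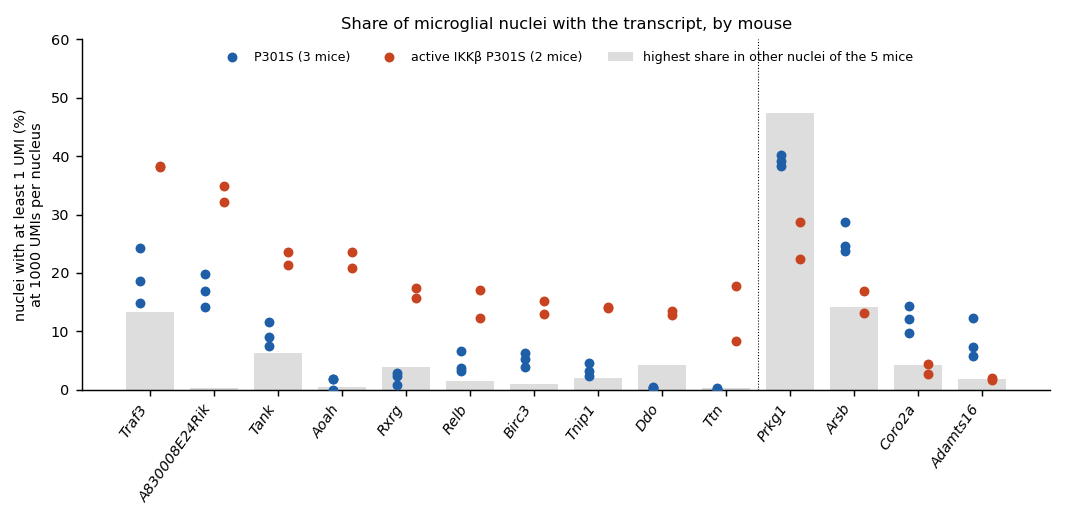
The vertical axis gives the percentage of microglial nuclei with at least 1 UMI of a gene after thinning to 1000 UMIs per nucleus. Blue dots are the 3 P301S mice, red dots the 2 active IKKβ mice, and grey bars the highest share in other nuclei of the 5 mice. Traf3 stands near 38% in both active IKKβ mice, and Prkg1 is the gene with the largest background.

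The genes that rose were also summed in each nucleus, leaving out the abundant Lrmda. Because the values of these mice chose the 47 genes, the sum is a description. The median thinned nucleus held 3, 2 and 3 UMIs of the 47 genes in the P301S mice and 8 and 9 in the active IKKβ mice. At least 5 UMIs were found in 18.7, 18.9 and 34.3% of P301S microglia and in 82.6 and 83.4% of active IKKβ microglia, against 5.15 to 9.24% of other nuclei. No UMI of the 47 genes was found in 12.1, 10.4 and 4.99% of P301S microglia and in 1.46 and 0.452% of active IKKβ microglia. The 10th percentile in active IKKβ microglia, 3 UMIs, equalled or passed the P301S medians. The distributions still overlapped, with 17.4 and 16.6% of active IKKβ microglia at 4 UMIs or fewer.

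**Figure D4:**
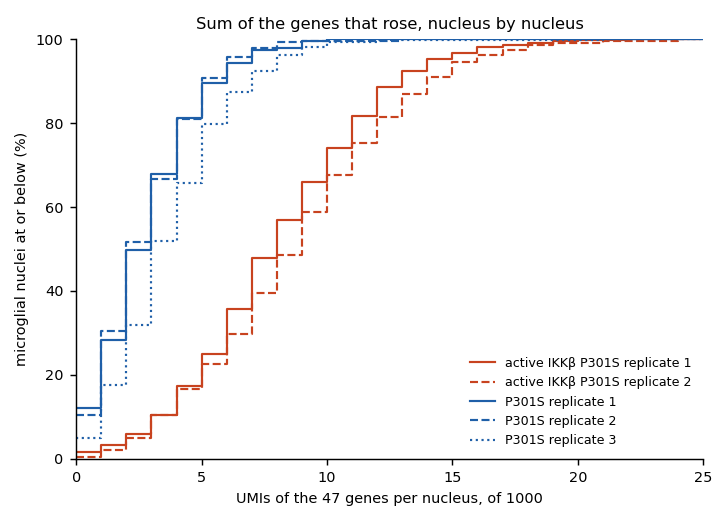
Each line is 1 mouse. The horizontal axis gives UMIs of the 47 genes per microglial nucleus of 1000 UMIs and the vertical axis the percentage of nuclei at or below that number. The 2 active IKKβ lines (medians 8 and 9) run to the right of the 3 P301S lines (medians 2 and 3), and P301S replicate 3 is the nearest of the 3 to them.

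The change was set against the 49306 nuclei of the same mice with none of the 8 rule genes. In these nuclei 1 of 20091 genes was called (0.00498%, 931 genes at an unadjusted p under 0.05, and 17 called by DESeq2), the ubiquitin ligase gene Trim16, which rose. Of the 57 genes called in microglia, none (0) was called there by edgeR, and their log2 fold changes ran from -0.36 to 1.46 with a median size of 0.17, against 1.46 in microglia. The difference between the 2 effects was tested in 1 model over both kinds of nuclei with a term per mouse, where 228 of 20076 genes passed (1.14%). Among the 57 genes 49 passed, 43 of the rises and 6 of the falls. The 57 were chosen by their change in the same microglial sums, so this count is a description. The 8 others, Lst1, Slamf8, Tlr5, Vasp, Zeb2os, Abcg3, Prkg1 and Ywhah, were not shown to differ between the nuclei.

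**Figure D5:**
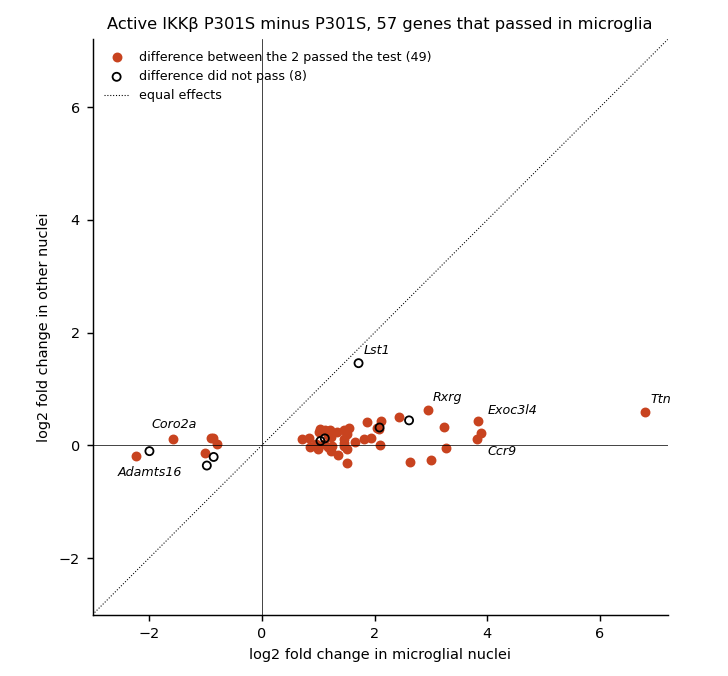
Each dot is 1 of the 57 genes called in microglia, placed by its log2 fold change in microglial nuclei (horizontal) and in other nuclei (vertical), on equal scales. Filled dots passed the test of the difference (49) and open dots did not (8). Dots lie along the horizontal zero line, apart from Lst1 at 1.72 and 1.46.

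The knockout P301S mice outside the contrast are given beside these levels as a description, since the genes were chosen with the same active IKKβ mice. The knockout mice carry the same Cx3cr1-CreERT2 allele as the active IKKβ mice. For Traf3 the knockout mice measured 234 and 189 CPM, for Relb 40.7 and 18.9, for Tnip1 29.2 and 17.7, for Aoah 26.6 and 40.4 and for Ttn 1.04 and 0, in each case below both active IKKβ mice. The genotypes of these mice differ from active IKKβ mice in line and Ikbkb as well, and both were younger than either of them, so this does not single out the transgene.

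P301S replicate 3 lay closest to the active IKKβ mice in the genes that rose. It had the highest level of the 3 P301S mice in 35 of the 48 genes that rose, where it had the highest in 32.8% of all tested genes. The 57 genes did not overlap between the groups, so their signs against this mouse alone were all but fixed. Set against this mouse alone, by its title the control of the same line, the 48 rises ran from 0.59 to 6.63 (median 1.27) and the 9 falls from -1.90 to -0.83, and 42 of the rises were smaller than in the full contrast. In that contrast 11 genes were called, 9 of them among the 57, with the lone control mouse assumed to vary like the other groups. The title may not settle this mouse's background, since in other nuclei it had 14.2 CPM of Gm16867, where the mice titled as of the floxed line had 13.1 to 34.1 CPM and the other mice of the active IKKβ line 0.073 to 0.16 CPM. In microglia it had 43.1 CPM of Fcrls, which went with its title. For that gene the floxed line had 220 to 360 CPM and the other mice of the active IKKβ line 21.2 to 149 CPM. Comparisons by line, here and as a covariate, rest on the title. Lrmda, the most abundant gene that rose, measured 1913, 1934 and 3311 against 5999 and 6008 CPM, and Fgr, a Src family kinase named after its values were seen and called without the deep nuclei, 15.3, 37.7 and 73.6 against 125 and 166 CPM. This mouse also had the highest age of the 3 and the most microglia, and the part of line, age and yield in these levels was not tested.

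Genes called in 5 of 5 analyses that each left out 1 mouse numbered 23, all of them higher, among them Ttn, Ddo, Ccr9, Aoah, Rxrg, Cp, Tnip1, Tank and Birc3. Msh5, Zeb2os, Usp2 and Serpine2 were called in none (0) of these 5. All 57 kept their direction in each of the 5, which their lack of overlap between the groups all but fixed in advance. With breeding line as a covariate 34 of the 57 remained called and all 57 kept their direction. Traf3 and Relb were not among the 34.

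Positions of the called genes on the genome are given as a description, and their spread over it was not tested. Of the 98 tested genes within 10 Mb of the Rosa26 locus on chromosome 6, none (0) was called in either set (0.532% of all genes were called with all nuclei). Of the 89 within 10 Mb of Cx3cr1 on chromosome 9, 1 was called, Ccr9 (chr9:123678439-123784330), and Rbms3 was added without the deep nuclei. In 4 pairs 2 called genes lay within 500 kb and moved in the same direction, Traf3 with Exoc3l4 (149864 bases apart, chromosome 12), Cd101 with Ptgfrn (10676 bases, chromosome 3), Vasp with Relb (334400 bases, chromosome 7) and Msh5 with Lst1 (138350 bases, chromosome 17).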

How the data were processed

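Nuclei from frozen cortex of 11 mice were sorted on DAPI and sequenced with 10x 3′ chemistry. The deposited matrices hold UMI counts per gene and barcode that the authors made with Cell Ranger 3.1.0 (mm10, reads counted over unspliced transcripts, default cell calling), with replicates kept apart. The study's methods name DoubletFinder for its own later removal of doublets. Here, no doublet caller was run and ambient RNA was not removed. Microglial counts were summed per mouse and tested with edgeR's quasi-likelihood test (version 4.0.16, R 4.3.3; filterByExpr, TMM, 1 term per genotype over all 11 mice, shared dispersion), with p-values adjusted over all genes tested. The biological coefficient of variation was 14.8%. The 5 mice of the contrast had 72007219 to 93205362 UMIs in all and 682569 to 2334409 in microglia, which limits low genes. Intervals and floors cover counting error only. DESeq2 1.42.0, RLE factors, no filter, a fit of the 5 mice alone, line, age, replicate number, other nuclei rules, thinning and leaving out each mouse were alternatives. The scripts' tests were checked on simulated data.

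Genes were named by rule: the 12 largest changes in each direction among called genes whose mice do not overlap, up to 6 called members of each list or, with none called, the 2 lowest p-values, called members of symbol families, and Ikbkb, Cx3cr1, Nfkbia and Traf3. A gene named outside this rule was chosen after its values were seen: Nfkb1, Ikbke, Apoe, Tnfaip3, Casp4, Fcrls, Lrp1, Mrc2, Fgr, genes below the filter, the remaining called genes and those in the closing section. The members, lists and tests were chosen with earlier results of these data known. Coordinates are from GENCODE vM21 (GRCm38), promoter sequences from RefSeq (GRCm38.p6). Group labels came from the deposited genotypes, and lines from the sample titles. Results on 2 genes are not reported here.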

Additional observations from a re-analysis of the deposited data

Results flagged for a closer look

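Among the 12 genes with the largest rises and the 9 that fell there were 17 for which the change with active IKKβ differed between microglia and the other nuclei of the same mice, by the edgeR test of that difference. Over all genes 228 of 20076 passed that test (1.14%). The genes here were chosen by their change in the same microglial sums, so the count of 17 is a description. The changes in microglia exceeded those in other nuclei on the log2 scale by 6.32 for Ttn, 3.83 for Ddo, 3.78 for Exoc3l4, 3.78 for Ccr9, 3.43 for Msh5, 3.33 for Tk1, 3.02 for Aoah, 3.00 for Cp, 2.62 for Rxrg, 2.03 for Hpn and 1.79 for Cd101. The differences (microglia minus other nuclei) were -2.01 for Adamts16, -1.70 for Coro2a, -0.97 for Serpine2, -0.95 for Ank, -0.84 for Arsb and -0.80 for Usp2. In no group of the contrast were there enough mice to look for single mice that stood apart.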

How the results depend on the processing

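All 57 called genes kept their direction in every setting in which they could be tested. Their levels did not overlap between the groups, so leaving out mice could hardly turn a sign. Against 57 calls, 309 were made with no filter on low counts, 108 in nuclei with at most 10 UMIs of other cell types and 122 without the deep nuclei. Of the 57, 42 were called in the nuclei with at most 10 UMIs of other cell types and 44 in thinned nuclei, and 2 could not be tested in each. DESeq2 called 45 of them. A fit of the 5 mice of the contrast alone called 56 genes, 43 of them among the 57. With breeding line as a covariate 36 were called, and with the P301S mouse titled as of that line as the only control 11, the spread of this lone mouse being taken from the other groups. Leaving out 1 mouse gave 36 to 123. The share of rises among the calls was 84.2%, 66.7% with DESeq2 (48 of 72), 63.4% without the filter, 64.3% in thinned nuclei (54 of 84) and 58.3% in nuclei poor in other cell types. With the title number as a replicate block 67 genes were called, 51 of them among the 57. The labels do not tie equal numbers to a shared litter or day, so the block was not used elsewhere. In other nuclei 17 genes were called by DESeq2, 0 with line as a covariate and 0 without any 1 mouse, where 1 was called otherwise, and the replicate block left that at 1. The difference between nuclei gave 126 to 216 calls when 1 mouse was left out, against 228. The difference in microglial share stayed positive at 1.10 to 3.57 points. For 39 named genes, 658 values under alternatives held 145 that no longer passed and 0 that turned. With 2 and 3 mice, small changes in low genes could not be detected. The cause of the differing counts was not tested.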

Other observations

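Of the 122 genes called without the deep nuclei, 54 were also called with all nuclei, and the genes named here from the rest were chosen after their values were seen. Higher were Src (1.26 on the log2 scale, adjusted p = 0.0189, edgeR) and Fgr (1.39, adjusted p = 0.0285), both Src family kinases. In all nuclei Src had a log2 fold change of 0.94 and was not called (adjusted p = 0.325). Kynu, the kynureninase of tryptophan breakdown, measured 9.15, 4.97 and 23.8 against 44.6 and 56.8 CPM in all nuclei (adjusted p = 0.0676, and log2 1.53 with adjusted p = 0.0466 without the deep nuclei). Xdh, xanthine dehydrogenase, measured 4.58, 4.97 and 10.0 against 26.4 and 31.2 CPM in all nuclei (adjusted p = 0.0545, and log2 1.85 with adjusted p = 0.0271 without them). Esrrg, an orphan nuclear receptor, had a log2 fold change of 1.37 (adjusted p = 0.00184), and of 0.77 in all nuclei (adjusted p = 0.0873). Lower were Lrp1, a scavenger receptor that takes up tau (-0.86, adjusted p = 0.0227), the protein kinase gene Prkch (-0.93, adjusted p = 0.00248, not apart from the same-line mice described next) and the adenylyl cyclase gene Adcy8 (-1.58, adjusted p = 0.0104). In all nuclei these 3 genes had log2 fold changes of -0.66, -0.71 and -0.79 and were not called (adjusted p = 0.0938, 0.0534 and 0.292).

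Some of these falls were not apart from the levels of mice of the same breeding line that carried neither Cre nor tau. The 2 active IKKβ mice did not both lie above or both lie below the 2 Cre-negative, tau-negative mice bred from the R26 line for 13 of the 48 genes called lower without the deep nuclei and for 4 of the 74 called higher, where 63.2% of all tested genes did not. The called genes were chosen with the same active IKKβ mice, so these counts are a description. Among the 13 were Prkch, Rtp4 and Tnfsf8. Prkch measured 166, 146, 158 and 128 CPM in non-transgenic replicates 1 to 4, 192, 205 and 232 CPM in the P301S mice and 127 and 129.8 CPM in the active IKKβ mice. The 2 largest were neighbours on chromosome 14, the predicted gene Gm16867 (chr14:69363504-69503362) and Loxl2, a lysyl oxidase (chr14:69609068-69695834), 105706 bases apart. Gm16867 measured 46.8, 67.8, 0 and 0 CPM in non-transgenic replicates 1 to 4, where replicates 3 and 4 are of the active IKKβ line, 88.5, 38.7 and 30.1 CPM in the P301S mice, 75.1 and 102 CPM in the knockout P301S mice and 0 and 0 CPM in the active IKKβ mice. With 0 UMIs counted in active IKKβ microglia, a floor of 3 for the group as a whole puts Gm16867 at least 63.4-fold lower and Loxl2 at least 30.4-fold lower than in the P301S sums. In other nuclei Gm16867 had 4083 UMIs in the P301S mice and 20 in the active IKKβ mice. P301S replicate 3, titled as of the active IKKβ line, had 30.1 CPM of Gm16867 in microglia and 14.2 CPM in other nuclei, where the mice titled as of the floxed line had 13.1 to 34.1 CPM and the other mice of the active IKKβ line 0.073 to 0.16 CPM. Fcrls measured 360.4, 355, 87.5 and 149 CPM in non-transgenic replicates 1 to 4, 219.7, 319.8 and 43.1 CPM in the P301S mice and 21.2 and 35.6 CPM in the active IKKβ mice, lower in each mouse of the active IKKβ line than in any of the floxed line.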
